A study of Mus musculus with 4 samples.

Results

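The genes described here were 10 regulators and receptors of the melanocyte lineage, taken by symbol from a table of 24527 mouse genes: the transcription factors Mitf, Sox10, Pax3, Tfap2a and Sox9, and the receptors Mc1r, Ednrb, Kit, Ngfr and Axl. All 10 symbols were in the table, each had reads in all 4 libraries, and 9 averaged at least 1 CPM (counts scaled to a common library total), the exception being Ngfr at 0.991 CPM. RNA was sequenced from B16F10, a transplantable mouse melanoma line, grown as a 2D monoculture, in 2D co-culture with NIH/3T3 mouse fibroblasts, in spheroids formed with the same fibroblasts, and as a tumor in mice. The 2D cultures are called monoculture and co-culture below. All samples carried a wild-type genotype label. According to the methods, the cultured B16F10 cells expressed a green fluorescent protein and were isolated from their cultures by cell sorting, and tumors were grown under the skin of both flanks of 1-year-old female C57BL/6 mice. The methods describe the tumor cells as sorted, whereas the library is labelled as a snap-frozen tumor, and whether other cells of the tumor contributed RNA is not stated.

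Each condition was represented by 1 library. The methods mention more than 1 RNA sample, and whether a library pooled several of them or held a single one is not stated. No difference between conditions could therefore be set against the spread between replicates, no p-value was calculated, and the 95% intervals below cover counting error only. The libraries held between 118896900 and 150028663 reads, so that 3 reads, the most that a count of 0 allows for, equalled 0.0185 to 0.0262 CPM. All CPM values were scaled with TMM factors, which correct for differences in library composition. The log2 ratios of genes followed GC content, with a Spearman correlation across 12466 genes of 0.464 for spheroid to monoculture, 0.200 for co-culture to monoculture and -0.381 for tumor to monoculture. Since exonic GC content ranged from 43.4% for Mitf to 61.8% for Sox10, each ratio is followed below, where the difference matters, by its value after a correction that subtracts the median ratio of genes of similar GC content and length.

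Melanocytes arise from the neural crest. SOX10 and PAX3 activate the gene for MITF, the basic helix-loop-helix factor that drives the pigment genes, and MC1R, the receptor for melanocyte-stimulating hormone, raises cyclic AMP and thereby MITF transcription. KIT and EDNRB receive the growth signals stem cell factor and endothelin that melanoblasts need for migration and survival. In melanoma, a state with low MITF and high AXL, NGFR or SOX9 is known as dedifferentiated or invasive.

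Melanocyte identity was checked with 8 markers of the lineage (Tyr, Tyrp1, Dct, Pmel, Mlana, Slc45a2, Oca2 and Trpm1). All 8 had reads in every library, and their summed level was 15782 CPM in monoculture, 14339 CPM in co-culture, 10626 CPM in spheroids and 19756 CPM in the tumor. Tyrp1, a melanosomal enzyme, contributed 6168 CPM in monoculture and 8948 CPM in the tumor, and Dct, which converts dopachrome, 4482 CPM and 5127 CPM.

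With 1 CPM added to each value, Mitf and Mc1r were the members more than 2-fold lower in the spheroid than in both 2D cultures, and their promoters are therefore shown. Kit was also over 2-fold lower there when nothing was added, at levels under 1 CPM in all 3 cultures. RefSeq lists 3 promoters for Mitf, at chr6:97806808-97807057, chr6:97929567-97929816 and chr6:97991533-97991782, and 1 for Mc1r, at chr8:123406832-123407081, all on the plus strand of GRCm38.p6 and each covering the 250 bases before the annotated start. The last of the Mitf promoters belongs to the melanocyte form of the transcript. Capitals mark matches to CATGTG, the E-box form bound by MITF (read as CACATG on the other strand), to the E-box CACGTG, to the SOX motif ACAAAG, or to the cyclic AMP response element TGACGTCA, which was added to the search after the sequence had been read.
Mitf, melanocyte promoter: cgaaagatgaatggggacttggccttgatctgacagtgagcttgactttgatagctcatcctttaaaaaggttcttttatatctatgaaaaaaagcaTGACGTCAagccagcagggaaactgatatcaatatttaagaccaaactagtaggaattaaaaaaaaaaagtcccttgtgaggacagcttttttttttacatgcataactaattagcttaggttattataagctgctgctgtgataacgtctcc
Mc1r promoter: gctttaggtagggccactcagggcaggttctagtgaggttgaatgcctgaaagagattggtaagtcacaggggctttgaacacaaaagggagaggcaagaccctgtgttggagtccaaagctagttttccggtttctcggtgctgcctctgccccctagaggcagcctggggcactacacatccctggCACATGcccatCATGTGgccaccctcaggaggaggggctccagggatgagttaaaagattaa

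The cyclic AMP response element of the melanocyte promoter began 153 bases before the start of Mitf, and 1.55% of 32851 mouse promoters of the same length held such a match on either strand. The Mc1r promoter held 2 matches to CATGTG, beginning 62 and 51 bases before the start, a motif found in 12.3% of all promoters. Neither CACGTG, present in 6.02% of promoters, nor ACAAAG, present in 16.5%, occurred in these windows. The 2 upstream Mitf promoters and those of Tfap2a, Ednrb, Kit, Ngfr and Axl held none of the 4 motifs, and Sox10, Pax3 and Sox9 were not in the promoter table. These matches describe the sequence and do not show that a factor binds.

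Mitf (chr6:97807052-98021349, plus strand, protein-coding, 8 annotated transcripts) was lowest in the spheroid and highest in the tumor. Its level was 416 CPM in monoculture, 223 CPM in co-culture, 70.3 CPM in spheroids and 708 CPM in the tumor, on 59236, 25572, 9574 and 114955 reads. The spheroid was thus 5.91-fold below the monoculture (log2 ratio -2.56, interval -2.60 to -2.53) and 3.18-fold below the co-culture (-1.67, interval -1.70 to -1.63). The co-culture was 1.86-fold below the monoculture (-0.90, interval -0.92 to -0.88, corrected -0.61). Of the 12728 genes that averaged 1 CPM or more, 1.19% had a lower ratio of spheroid to monoculture. Mitf has few G and C bases, with 17.7% of genes lower in GC content, and the correction brought its ratio of spheroid to monoculture to -1.87 and that of spheroid to co-culture to -1.51. The tumor was 1.70-fold above the monoculture (0.77, interval 0.75 to 0.78, corrected 0.54), and the spheroid was 10.1-fold below the tumor (-3.33, corrected -2.37).

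Sox10 (chr15:79154908-79165240, minus strand, protein-coding), the SOXE factor that maintains neural crest and melanocyte identity, held nearly the same level in all cultures before correction for GC content and was lower in the tumor. It had 834 CPM in monoculture, 871 CPM in co-culture, 902 CPM in spheroids and 237 CPM in the tumor. The log2 ratio of spheroid to monoculture was 0.11 (interval 0.10 to 0.12), but its sign depended on the processing, since it was -0.0030 with total counts and -0.60 after the GC and length correction. With 98.3% of genes lower in GC content, Sox10 was the member with the most G and C bases. In the tumor it was 3.52-fold below the monoculture (-1.82, interval -1.83 to -1.80), a difference that the correction brought to -0.99.

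Pax3 (chr1:78101267-78197134, minus strand, protein-coding), a paired-box factor of the neural crest, was higher in the spheroid than in monoculture before and after the correction. Its level was 167 CPM in monoculture, 197 CPM in co-culture, 244 CPM in spheroids and 111 CPM in the tumor. The ratio of spheroid to monoculture was 0.54 on the log2 scale (interval 0.52 to 0.57, corrected 0.84), and that of tumor to monoculture was -0.59 (corrected -0.12). Tfap2a (chr13:40715302-40738376, minus strand, protein-coding), the AP-2 factor that acts beside MITF on pigment genes, had 58.7 CPM in monoculture, 93.6 CPM in co-culture, 114 CPM in spheroids and 21.9 CPM in the tumor. It was 1.94-fold above the monoculture in the spheroid (0.95, corrected 0.91) and 2.68-fold below it in the tumor (-1.42, corrected -1.19). Its exons overlap those of 3 annotated antisense genes by up to 269 bases, and reads of these genes could not be separated because the strand setting of the counting was not given in the sources used here. Sox9 (chr11:112782224-112787760, plus strand, protein-coding), the SOXE factor of cartilage and glial precursors, had 5.19 CPM in monoculture, 10.1 CPM in co-culture, 8.74 CPM in spheroids and 3.32 CPM in the tumor. Both cultures with fibroblasts were above the monoculture, by 1.95-fold in co-culture (0.96, interval 0.83 to 1.10) and by 1.68-fold in the spheroid (0.75, interval 0.62 to 0.89).

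**Figure D1:**
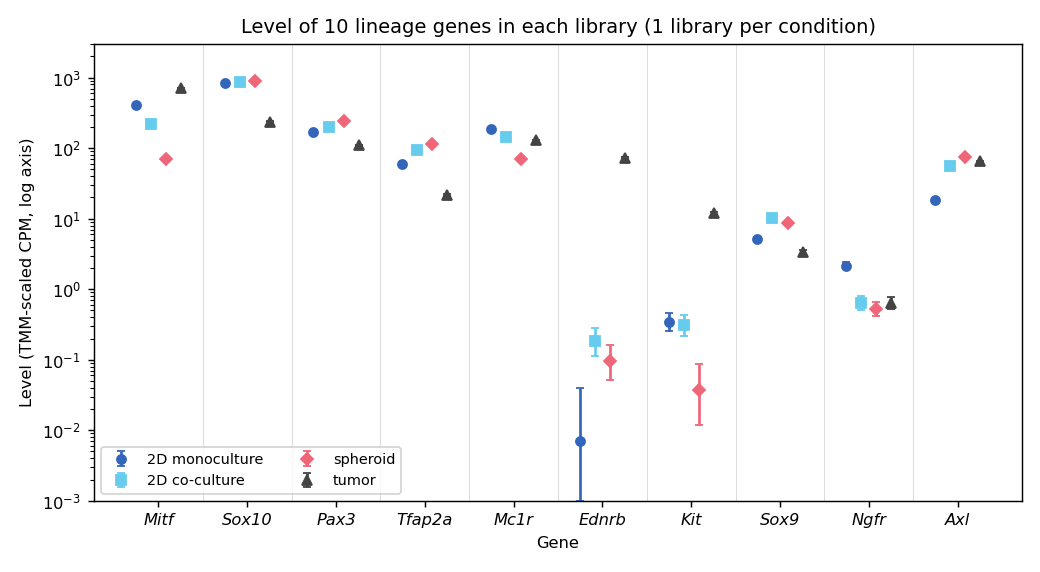
Level of each of the 10 genes in the 4 libraries, as TMM-scaled CPM on a log axis, with bars for the 95% counting interval (the lower bar of Ednrb in monoculture is cut at the axis). Mitf and Mc1r were lowest in the spheroid at 70.3 and 70.5 CPM, Ednrb and Kit stood far above the cultures in the tumor at 73.5 and 11.9 CPM, and Axl was lowest in monoculture at 18.2 CPM.

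Among the receptors, Mc1r (chr8:123407107-123410744, plus strand, protein-coding) was lower in the spheroid than in any other library. Its level was 185 CPM in monoculture, 145 CPM in co-culture, 70.5 CPM in spheroids and 129 CPM in the tumor. The spheroid was 2.62-fold below the monoculture (-1.39, interval -1.43 to -1.36) and 2.06-fold below the co-culture (-1.04, interval -1.08 to -1.01), and the correction enlarged both differences, to -1.84 and -1.43. An unverified transcript on the opposite strand, Gm38092, overlaps the exons of Mc1r by 653 bases, so that its reads could not be told apart either.

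Ednrb (chr14:103814625-103844402, minus strand, protein-coding), the receptor of endothelins that melanoblasts depend on, was close to absent from the cultures. It had 1 read in monoculture, 21 in co-culture and 13 in the spheroid, against 11933 in the tumor, or 0.00702, 0.183, 0.0955 and 73.5 CPM. The tumor thus exceeded the monoculture by a log2 ratio of 13.35 (interval 10.88 to 18.66) and the spheroid was 769.9-fold below the tumor (-9.59, interval -10.50 to -8.81). Its level in the tumor was above that of 89.2% of genes. Kit (chr5:75574916-75656722, plus strand, protein-coding), the receptor of stem cell factor, also had most of its reads in the tumor, with 49 in monoculture, 36 in co-culture and 5 in the spheroid against 1927 in the tumor, or 0.344, 0.314, 0.0367 and 11.9 CPM. The tumor was 34.5-fold above the monoculture (5.11, interval 4.70 to 5.55), and the spheroid was 9.37-fold below the monoculture (-3.23, interval -4.91 to -1.91), at levels under 1 CPM in both cultures.

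A set of 75 genes with at least 5000 reads in the tumor and under 0.03% of the tumor's level in monoculture, chosen after the data had been seen and with Ednrb among them, had a median of 0.185% of the tumor's level in co-culture (quartiles of 0.150% and 0.250%) and of 0.123% in the spheroid (quartiles of 0.104% and 0.159%). Ednrb stood at 0.250% in co-culture, at the upper quartile of these genes, and at 0.130% in the spheroid, between their quartiles. Since the set was picked from the same libraries and holds Ednrb, this position is a description and tests nothing. Kit, with 1927 reads in the tumor, met neither criterion of the set. It stood at 2.65% of its tumor level in co-culture, at 2.90% in monoculture and at 0.309% in the spheroid. The source of these reads was not tested.

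Ngfr (chr11:95568818-95587735, minus strand, protein-coding), the low-affinity neurotrophin receptor of neural crest cells, was scarce throughout. It had 2.14 CPM in monoculture, 0.646 CPM in co-culture, 0.529 CPM in spheroids and 0.647 CPM in the tumor. The spheroid was 4.05-fold below the monoculture (-2.02, interval -2.41 to -1.64) and the co-culture 3.31-fold below it (-1.73, interval -2.11 to -1.36). The correction enlarged the difference of the spheroid to 6.39-fold and reduced that of the tumor from 3.31-fold to 1.70-fold. With 1 CPM added to both values, as in the counts of genes over 2-fold, the ratio of co-culture to monoculture was -0.93, and the gene was not counted. In each of these 3 libraries Ngfr was below the monoculture and Axl, described next, was above it.

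Axl (chr7:25757273-25788705, minus strand, protein-coding), a receptor tyrosine kinase of the TAM family that binds GAS6, was lowest in monoculture. Its level was 18.2 CPM there, 56.0 CPM in co-culture, 74.0 CPM in spheroids and 65.3 CPM in the tumor. The differences from the monoculture were 3.07-fold for the co-culture (1.62, interval 1.55 to 1.69, corrected 1.58), 4.06-fold for the spheroid (2.02, interval 1.96 to 2.08, corrected to 2.83-fold) and 3.58-fold for the tumor (1.84, interval 1.78 to 1.90, corrected 2.61). Of all genes, 98.6% had a lower ratio of co-culture to monoculture and 98.6% a lower ratio of spheroid to monoculture. The order of spheroid and tumor was not stable: their log2 ratio was 0.18, but -0.18 with total counts and -0.91 after the correction.

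Fibroblast markers were present beside these values. Their summed level (9 genes, all with reads in every library) was 17.6 CPM in monoculture, 679 CPM in co-culture, 36.5 CPM in spheroids and 2728 CPM in the tumor. Pdgfrb gave 11.0, 27.7, 23.5 and 18.5 CPM of these sums. It thus made up most of the sum in the spheroid and in the monoculture, which was grown without fibroblasts. Col1a2, a collagen chain, had 2.97 CPM in monoculture, 514 CPM in co-culture, 4.05 CPM in spheroids and 622 CPM in the tumor, and Col3a1 had 0.274, 53.1, 2.28 and 1307 CPM. Between spheroid and co-culture, the log2 ratio of Axl was 0.40 (interval 0.36 to 0.45), but 0.067 after the correction, while the summed level of the fibroblast markers was lower in the spheroid. The part of fibroblast RNA in the level of Axl, and in those of Sox9 and Mitf in co-culture, was not tested, and in bulk libraries fewer cells of a type and less RNA per cell cannot be told apart.

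**Figure D2:**
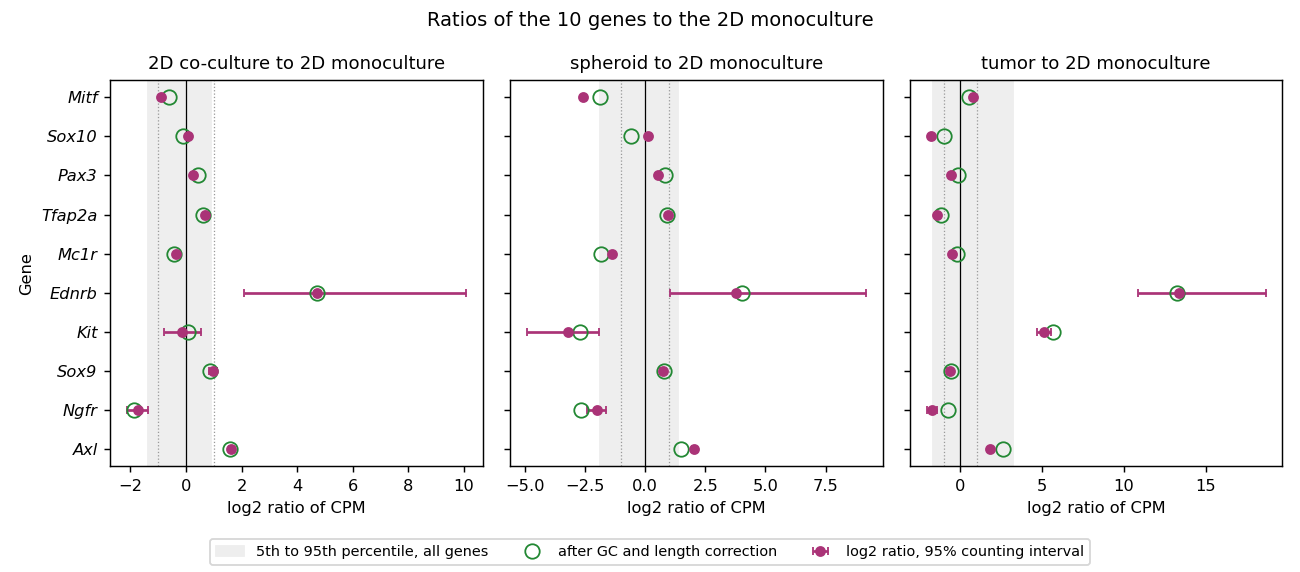
Log2 ratio of each gene to the monoculture in co-culture, the spheroid and the tumor (filled points, bars for the 95% counting interval) and after correction for GC content and length (open circles). The grey band holds the 5th to 95th percentile of the 12728 genes that averaged 1 CPM or more, with 1 CPM added to each value and without the correction. The points have nothing added, so genes of few reads, such as Ednrb and Ngfr, cannot be read against the band. Dotted lines mark 2-fold. Mitf in the spheroid moved from -2.56 to -1.87 with the correction, and Axl lay to the right of the band in both fibroblast cultures before and after it.

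For counts of genes over 2-fold, 1 CPM was added to each value. Between spheroid and monoculture, 1 member was higher (Axl) and 3 were lower (Mitf, Mc1r and Ngfr). Ngfr averaged under 1 CPM, so that 2 of the 9 members above this level were lower, and of all 12728 genes above it 11.2% were higher and 17.9% lower. With upper quartile scaling 2 members were higher and 2 lower, against 14.2% and 16%. Between co-culture and monoculture, 1 member was higher (Axl) and none was lower, against 3.79% and 9.51% of all genes. With a pseudocount of 0.1 CPM, 2 members were higher and 1 was lower, against 6.17% and 11.7%. Between spheroid and co-culture, none was higher and 2 were lower (Mitf and Mc1r), against 9.54% and 8.46%. Between tumor and monoculture, 3 members were higher (Ednrb, Kit and Axl) and 2 lower (Sox10 and Tfap2a), against 14.8% and 18.2%. Ednrb and Kit were under 1 CPM in every culture and reached an average of 1 CPM only through the tumor. Among genes past this level, their calls as higher in the tumor were therefore fixed in advance, also against the spheroid. With total counts 4 members were higher and 2 lower in that comparison, against 18.5% and 12.4%, and the correction for GC content and length gave 3 higher and 1 lower (Tfap2a), against 16% and 6.21%. Between spheroid and tumor, 4 members were higher (Sox10, Pax3, Tfap2a and Sox9) and 3 lower (Mitf, Ednrb and Kit), against 26.8% and 27.6%, and with total counts 2 were higher and 4 lower, against 19.4% and 33.5%. After the correction Sox10 was no longer counted as higher there (1.31-fold, from 3.81-fold) and Mc1r and Ngfr were counted as lower, which gave 3 higher and 5 lower, against 17% and 22.1%. The median log2 ratio of the 10 genes was 0.12 for spheroid to monoculture, 0.15 for co-culture to monoculture, -0.11 for spheroid to co-culture, -0.52 for tumor to monoculture and 0.04 for spheroid to tumor, where all genes had medians of 0.05, 0.01, -0.01, -0.14 and 0.08. The last of these medians changed sign with total counts, to -0.21, and after the correction, to -1.31.

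Ratios of members inside a library do not depend on the scaling between libraries. Per kilobase of exon, Axl had 0.054 reads for each read of Mitf in monoculture (interval 0.052 to 0.056), 0.309 in co-culture (0.300 to 0.317), 1.30 in the spheroid (1.26 to 1.33) and 0.114 in the tumor (0.111 to 0.116). As counted, the spheroid was the library in which Axl exceeded Mitf. This ratio was 24.0-fold above that of the monoculture in the spheroid, 5.72-fold in co-culture and 2.10-fold in the tumor. After the GC and length correction these were 10.3-fold, 4.56-fold and 4.20-fold, so the spheroid remained the library with the highest ratio. With the monoculture as the reference, however, the corrected ratio in the spheroid was 0.558, so that Axl no longer exceeded Mitf. Sox10 had 4.07 reads per kilobase for each of Mitf in monoculture, 7.92 in co-culture, 26.1 in the spheroid and 0.679 in the tumor. The corrected differences of this ratio from the monoculture were 1.41-fold, 2.41-fold and 0.345-fold. With the monoculture as the reference, the corrected ratio in the tumor was 1.41, so that Mitf no longer exceeded Sox10 there. As counted, Pax3 to Mitf followed the same order of libraries, with 0.403, 0.884, 3.47 and 0.157. Of the remaining ratios, as counted, Sox9 stayed at or below 0.0104 of Sox10, Ngfr at or below 0.0135 of Mitf, and Kit reached 0.0117 of Mitf in the tumor. After the correction, with the monoculture as the reference, Sox9 to Sox10 was highest in the spheroid, at 0.0118. Ngfr to Mitf was then highest in monoculture, at 0.00926, and Kit reached 0.0200 of Mitf in the tumor.

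**Figure D3:**
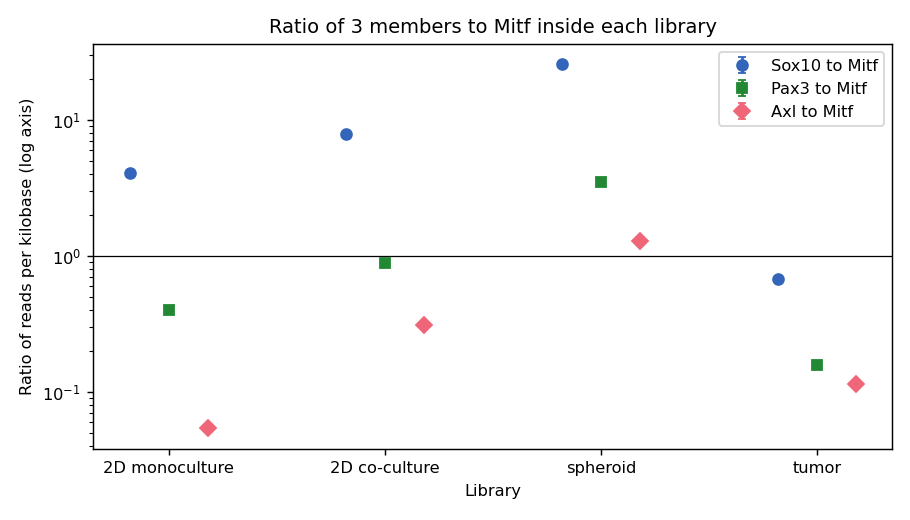
Reads per kilobase of Sox10, Pax3 and Axl relative to Mitf inside each library, on a log axis, with bars for the 95% counting interval (smaller than most symbols). The line marks equal levels. All 3 ratios were highest in the spheroid, and Axl exceeded Mitf there at 1.30, without correction for GC content.

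Compared per kilobase and without correction, Sox10 was the most abundant member in the 3 culture libraries, at 273 CPM per kilobase in monoculture, 286 in co-culture and 296 in the spheroid. Mitf ranked next in monoculture at 67.1 CPM per kilobase, behind Sox10 and Mc1r in co-culture at 36.0 and sixth in the spheroid at 11.3, below Pax3 at 39.4, Tfap2a at 23.2, Mc1r at 19.4 and Axl at 14.7. In the tumor Mitf was the most abundant at 114 CPM per kilobase, followed by Sox10 at 77.6 and Mc1r at 35.4. After the correction, with the monoculture as the reference, Sox10 exceeded Mitf in the tumor, at 1.41 of its level. With the length of the longest transcript in place of all exons, the ranks of 4 members differed in co-culture and none differed in the other libraries.

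The relatives of the members that averaged 1 CPM or more were examined next. Of the MITF/TFE family, which binds the same E-box and also controls lysosomal genes, Tfe3 and Tfeb differed from Mitf in direction in the spheroid. Tfe3 had 88.4 CPM in monoculture, 87.3 CPM in co-culture, 214 CPM in spheroids and 26.0 CPM in the tumor, and was 2.42-fold higher in the spheroid than in monoculture (1.27, interval 1.24 to 1.31, corrected 1.30). Tfeb had 33.9, 34.9, 93.3 and 30.5 CPM, and was 2.75-fold higher in the spheroid (1.46, interval 1.41 to 1.51, corrected 0.84). Per kilobase, Tfe3 and Tfeb both exceeded Mitf in the spheroid, at 2.03 and 1.45 of its level, but after the correction, with the monoculture as the reference, Tfe3 was at 1.28 and Tfeb at 0.581. Tfec, a family member of macrophages, had 5.68 CPM in the tumor and at most 0.182 CPM in the cultures.

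Of the TAM receptors, Tyro3 was higher in the spheroid together with Axl, with 32.7 CPM in monoculture, 45.0 CPM in co-culture, 94.6 CPM in spheroids and 13.4 CPM in the tumor. Its log2 ratio of spheroid to monoculture was 1.53 (interval 1.48 to 1.58, corrected 1.24). In the tumor Tyro3 was 2.43-fold below the monoculture (-1.28, corrected -0.36), where Axl was higher. Mertk, which phagocytes use to take up dying cells, had 0.555, 1.31, 0.610 and 8.43 CPM in the same order.

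Of the receptor tyrosine kinases related to Kit, Csf1r, the receptor of macrophage colony-stimulating factor, had 96.6 CPM in the tumor and at most 0.236 CPM in the cultures. Pdgfra, a receptor of mesenchymal cells, had 0.793 CPM in monoculture, 2.51 CPM in co-culture, 0.242 CPM in spheroids and 20.6 CPM in the tumor. Pdgfrb differed from these, with 11.0, 27.7, 23.5 and 18.5 CPM. Of the neurotrophin receptors, Sort1, the sorting receptor that pairs with NGFR, had 270, 280, 261 and 209 CPM, and Ntrk2 had 7.56 CPM in the tumor and at most 0.0175 CPM in the cultures. In the AP-2, SOXE, PAX3/7, melanocortin receptor and endothelin receptor families, no gene other than the members averaged 1 CPM.

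**Figure D4:**
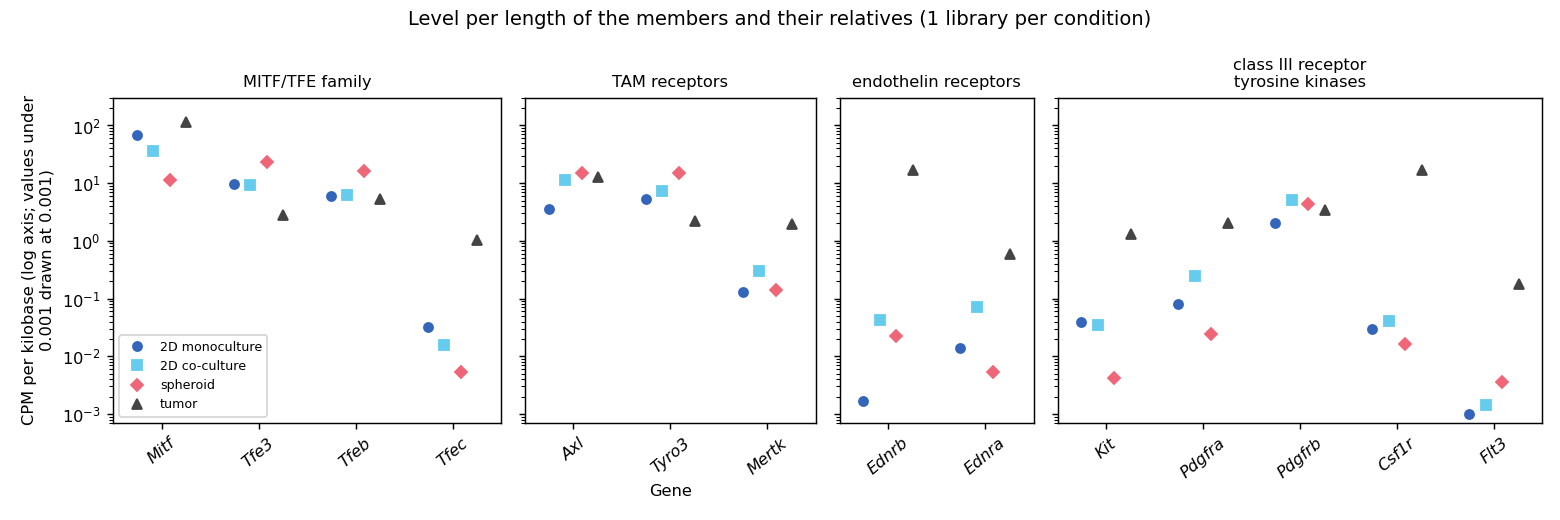
Level per kilobase of exon of Mitf, Axl, Ednrb and Kit beside their relatives in each of the 4 libraries, on a log axis (values under 0.001 are drawn at 0.001). Without correction, Tfe3 and Tfeb lay above Mitf in the spheroid, and Tyro3 lay close to Axl; Csf1r and Ednrb were high in the tumor alone among these libraries, at 96.6 and 73.5 CPM before division by length.

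The genes of each list below that averaged 1 CPM or more were counted, and beside the counts stand the shares of all 12728 genes above this level. Some genes, such as Edn1 and Gas6, were under 1 CPM in every culture and passed this average only through the tumor. Their calls as higher in the tumor were therefore fixed in advance. Of 11 ligands of these receptors 7 were counted, of which 4 were more than 2-fold higher and 2 lower in the tumor than in monoculture (all genes, 14.8% and 18.2%). None was higher and 2 were lower in the spheroid than in monoculture (11.2% and 17.9%). Gas6, the ligand of AXL, had 0.119 CPM in monoculture, 0.122 CPM in co-culture, 0.125 CPM in spheroids and 87.4 CPM in the tumor. Pros1, the other TAM ligand, had 23.9, 20.2, 9.87 and 55.0 CPM. Kitl, which encodes stem cell factor, had 2.33 CPM in monoculture, 6.35 CPM in co-culture, 0.140 CPM in spheroids and 18.3 CPM in the tumor. Pomc, the precursor of melanocyte-stimulating hormone, had 4.79, 4.61, 7.18 and 2.72 CPM, and was thus lowest in the tumor before correction for GC content, which was 59.2%. Its log2 ratio of tumor to monoculture was -0.64 with 1 CPM added. The 10% of genes highest in GC content had a median of -0.81.

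Of 9 partners of MC1R and endothelin signalling 8 were counted. None was more than 2-fold higher and 1 was lower in the spheroid than in monoculture (all genes, 11.2% and 17.9%), and 1 was higher and 2 lower in the tumor (14.8% and 18.2%). Gnas, the stimulatory G protein subunit that couples MC1R to adenylyl cyclase, had 1276 CPM in monoculture, 1403 CPM in co-culture, 2308 CPM in spheroids and 707 CPM in the tumor. Mgrn1, a ubiquitin ligase that restrains MC1R, had 199, 189, 261 and 101 CPM. Gna11, which couples endothelin receptors to phospholipase C, had 177, 173, 225 and 67.4 CPM, and Creb1, which binds the cyclic AMP response element, had 55.4, 46.5, 29.0 and 91.7 CPM. These levels are not corrected for GC content, which was 57.8% for Gnas, 55.9% for Mgrn1, 57.2% for Gna11 and 39.6% for Creb1.

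Of 14 pigment genes activated by MITF, all of them counted, none was more than 2-fold higher and 4 were lower in the spheroid than in monoculture (all genes, 11.2% and 17.9%). These counts are without the correction for GC content and length. The median log2 ratio of the list was -0.28 (corrected -0.20). Gpnmb, a melanosomal glycoprotein, had 10390 CPM in monoculture, 5483 CPM in co-culture, 4624 CPM in spheroids and 1772 CPM in the tumor. Tyrp1 had 6168, 4233, 2455 and 8948 CPM, in the same order of libraries as Mitf. Dct differed less, with 4482, 4246, 2986 and 5127 CPM, and Pmel, the fibril protein of melanosomes, was highest in the spheroid, with 2923, 3198, 3478 and 2208 CPM. Of 12 MITF targets outside pigment production 9 were counted, of which 1 was higher and 2 were lower in the spheroid (11.2% and 17.9%). Met, the receptor of hepatocyte growth factor, had 652 CPM in monoculture, 167 CPM in co-culture, 172 CPM in spheroids and 920 CPM in the tumor, with a log2 ratio of spheroid to monoculture of -1.92 (interval -1.94 to -1.90, corrected -1.33). Cdk2, a cell cycle kinase, had 337, 428, 642 and 404 CPM, Hif1a, the hypoxia-responsive factor, had 215, 153, 109 and 321 CPM, and Tbx2, a T-box repressor, had 140, 166, 341 and 58.2 CPM.

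Of 10 genes linked to SOX10, itself among them, 7 were counted, of which none was more than 2-fold higher and 2 were lower in the spheroid than in monoculture (all genes, 11.2% and 17.9%). Nes, an intermediate filament of neural progenitors, had 311 CPM in monoculture, 120 CPM in co-culture, 36.5 CPM in spheroids and 41.9 CPM in the tumor, and its spheroid to monoculture log2 ratio was -3.09 (interval -3.13 to -3.05, corrected -3.29). S100b, a calcium-binding protein, had 87.6, 44.9, 93.6 and 77.6 CPM, and Cdh19, a cadherin of the neural crest, had 42.8, 14.4, 11.0 and 48.8 CPM. Of 20 other transcription factors of the neural crest 15 were counted. None was higher and 3 were lower in the spheroid than in monoculture (11.2% and 17.9%), and 4 were higher and 1 was lower in co-culture (3.79% and 9.51%). The 4 higher in co-culture were Snai1, Twist1, Id1 and Myc. They had 8, 0, 1264 and 6165 reads in monoculture and 552, 350, 2406 and 17553 in co-culture. The part of fibroblast RNA in these co-culture counts was not tested. The most abundant of the 15 genes were Ets1, with 532, 703, 546 and 257 CPM, and Id2, an inhibitor of helix-loop-helix factors, with 102, 171, 119 and 152 CPM. Sox4 had 98.7, 110, 154 and 26.6 CPM and Bhlhe40 had 57.7, 84.4, 58.2 and 147 CPM.

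Of 16 genes of the dedifferentiated melanoma state, Axl and Sox9 among them, 11 were counted. In the spheroid 3 were more than 2-fold higher and 1 lower than in monoculture (all genes, 11.2% and 17.9%), in co-culture 4 were higher and none was lower (3.79% and 9.51%), and in the tumor 7 were higher and 1 lower (14.8% and 18.2%). The part of fibroblast RNA in the counts of the co-culture and the tumor was not tested. Jun, a subunit of AP-1, had 200.4 CPM in monoculture, 316 CPM in co-culture, 451 CPM in spheroids and 64.4 CPM in the tumor. Loxl2, a collagen crosslinking enzyme, had 6.73, 8.04, 11.3 and 97.1 CPM. Axl and Jun were higher in the spheroid than in monoculture, whereas Ngfr, a gene of this list under 1 CPM, was lower.

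Markers of other cell types were high in the tumor library beside Ednrb, Kit and Axl. The summed level of 10 macrophage markers was 2210 CPM in the tumor and at most 30.0 CPM in the cultures, led by Lyz2 with 1032 CPM and C1qb with 231 CPM. That of 8 endothelial markers was 299 CPM in the tumor and at most 78.5 CPM in the cultures, with Pecam1 at 99.4 CPM and Cdh5 at 64.2 CPM. For 7 mast cell markers, cells that depend on KIT, it was 31.3 CPM in the tumor, led by Mcpt4 with 8.08 CPM and Cma1 with 7.82 CPM, and at most 0.456 CPM in the cultures, where Tpsb2, Fcer1a and Ms4a2 had no read. All 7 mast cell genes, all 8 endothelial genes and all 10 macrophage genes had reads in the tumor.

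The summed level of 6 pericyte and smooth muscle markers was 775 CPM in the tumor, led by Des and Rgs5, and between 26.7 and 96.4 CPM in the cultures. For 6 markers of Schwann cells, which express Sox10 and Ngfr, it was 141 CPM in the tumor, of which Mbp gave 137 CPM, and between 7.62 and 17.4 CPM in the cultures. For 8 lymphocyte markers it was 56.9 CPM, led by Ptprc and Cd4, and at most 1.07 CPM in the cultures. Keratinocyte markers (7 genes, led by Trp63 and Krt10) came to 1.95 CPM in the tumor, with 3 of them at 0, and 5 chondrocyte markers (led by Col2a1 and Comp), relevant to Sox9, lay between 7.12 and 10.9 CPM in all libraries. The part of these cell types in the levels of Ednrb, Kit and Axl in the tumor was not tested.

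The genes whose pattern over the 4 libraries lay nearest to that of Mitf, by Euclidean distance of centred log2 values among 9588 genes averaging 10 CPM or more, were Cp at 0.223, Gabpb2 at 0.237 and Ncapg2 at 0.251. Those nearest to Sox10 were Cpsf1 at 0.0447, Nploc4 at 0.0874 and Fam222b at 0.0978. Those nearest to Axl were 1810026B05Rik at 0.409, Dusp6 at 0.454 and Gsdmc at 0.508, so that no gene followed Axl as closely as others followed Sox10. Dusp6, a phosphatase of ERK, had 55.4 CPM in monoculture, 123 CPM in co-culture, 153 CPM in spheroids and 129 CPM in the tumor. The levels used for these distances were not corrected for GC content, which among the members was highest for Sox10. With 4 libraries these distances describe the table and carry no test.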

How the data were processed

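The authors deposited whole-number read counts per refGene symbol for 4 libraries; the strand setting is not given in the sources used here. The submitters' processing notes name Trimmomatic, STAR, featureCounts and mm10 without versions. Counts were scaled to CPM with TMM factors (edgeR 4.0.16, R 4.3.3). Other steps used Python 3.11.15, numpy 2.4.6, pandas 2.3.3, scipy 1.17.1 and matplotlib 3.10.9. Intervals are exact Clopper-Pearson intervals at 95%, and ratios of single genes use no pseudocount. Counts of genes over 2-fold use log2(CPM + 1) and genes averaging 1 CPM or more. Position, exon length and GC content came from GENCODE M21, of the same build as mm10 (97.9% of these genes matched), and promoters from RefSeq GRCm38.p6. The GC correction subtracts the median of each of 10 GC by 10 length classes. Ratios and calls were tested on simulated data. No test across conditions was possible with 1 library each.

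The members and all lists were chosen with earlier results of these data known. Genes were named by rule: the 10 members; relatives averaging 1 CPM or more; the 4 most abundant genes of each pathway list; the 2 marker genes highest in the tumor; and the 3 nearest patterns to Mitf, Sox10 and Axl. Some genes that this rule covers are not reported here.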

Additional observations from a re-analysis of the deposited data

How the results depend on the processing

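No paired analysis was possible because there was 1 library for each condition. Alternatives were DESeq2 1.42.0 size factors, total counts, upper quartiles, the GC and length correction, a pseudocount of 0.1 CPM, a threshold of 1.5-fold, all genes with a read, members averaging 1 CPM or more, and the longest transcript. Total counts shifted every log2 ratio of spheroid to tumor by -0.36 and of tumor to 2D monoculture by 0.24, and upper quartiles shifted the latter by 0.25. Counts of the members averaging 1 CPM or more were added after seeing the data. Of 100 counts and medians of the members, 85 were unchanged within 1.5 times or 1.5-fold. For spheroid to 2D monoculture, 2 members were higher with upper quartiles and 3 at 1.5-fold. For 2D co-culture to 2D monoculture, 2 were higher with the pseudocount of 0.1 CPM and 3 at 1.5-fold, and 1 was lower with the correction, 1 with the pseudocount of 0.1 CPM and 2 at 1.5-fold. For tumor to 2D monoculture, 1 was lower with the correction and 4 at 1.5-fold. For spheroid to tumor, 2 were higher with total counts and 5 lower with the correction, and the median of the members, 0.04, changed sign to -0.21 with total counts, -0.056 with upper quartiles, -1.31 with the correction and -0.034 with the pseudocount of 0.1 CPM. Single ratios changed sign for Sox10 in spheroid to 2D monoculture (-0.0030 with total counts, -0.60 with the correction), in 2D co-culture to 2D monoculture (-0.11 with the correction) and in spheroid to 2D co-culture (-0.035 with total counts, -0.52 with the correction), and for Axl in spheroid to tumor (-0.18 with total counts, -0.91 with the correction). The ratio of Kit in 2D co-culture to 2D monoculture, whose interval included 0, went from -0.13 to 0.064 with the correction. The cause was not tested. Depth limits Ednrb in the 2D monoculture (1 read) and Kit in the spheroid (5 reads).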
